A study of Mus musculus with 6 samples.

Results

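The Hox genes of the mouse lie in 4 clusters, and 31 of the 18420 loci in the count table overlapped one of them. They were taken by position alone. On the mm9 genome the Hoxa window runs over chr6:52090000-52275000 and holds 10 of the loci, the Hoxb window over chr11:96050000-96235000 holds 7, the Hoxc window over chr15:102745000-102870000 holds 3, and the Hoxd window over chr2:74352723-74719197 holds 11. Levels were measured by poly(A)-selected RNA sequencing in mouse embryonic stem (ES) cells at day 0, with 3 libraries, and in embryoid bodies at day 6 of induced cardiac differentiation, with 3 libraries. All 6 samples came from an ES line that carries a bacterial artificial chromosome (BAC) expressing green fluorescent protein as a reporter of Nkx2.5, a heart transcription factor. Day 0 cells were kept undifferentiated with the cytokine LIF, grown either over embryonic fibroblast feeders or over gelatin, and the labels do not say which applied to which sample. Day 6 cells had been aggregated in hanging drops, and the labels name no sort for the reporter. The line is given as subline E14Tg2A.4 of 129/OlaHsd in the growth protocol and as C57BL/6J in the strain label. The design text calls the 3 samples of a stage biological replicates. Levels are read counts that the authors divided by 1 size factor per library, called normalized counts here.

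Hox proteins are homeodomain transcription factors that give cells along the head to tail axis, and along limbs, their positional identity. Within a cluster the genes stand in the order in which they are switched on in the embryo, from the 3′ end (group 1, early and anterior) to the 5′ end (group 13, late and posterior), a property called collinearity. In ES cells the clusters are known as targets of Polycomb repression, and noncoding transcripts run between and across the genes, several of them on the opposite strand.

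The assembly behind the count table does not keep these genes apart. It joins neighbouring Hox genes into single loci, and by the names assigned here 17 of the 31 loci held 35 of the 39 Hox genes. Of the other loci, 8 were noncoding and lay on the strand opposite to the Hox genes of their cluster, 3 were noncoding on the Hox strand, and 3 were other protein-coding genes at the ends of the Hoxd window. The classes were set after names and values had been seen. Gene names were not in the files: they come from an exact match of intron and exon lengths to annotated transcripts, and rest on 1 intron length alone for Hoxa4, Hoxb1, Hoxb2, Hoxb7, Hoxb13, Hoxc8, Hoxc10, Hoxc11, Hoxc12, Hoxd10 and Hoxd11, which are therefore less sure. Exons of several loci also overlap. The median counted locus in the windows shared 1.94% of its exonic bases with other loci, 10 loci shared over 50% and the highest shared 88.2%. The sources used here do not give the strand setting of the counting or the rule for reads in shared exons, so sense and antisense levels of overlapping loci may not be independent.

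Start sites of the Hox genes are shown by 4 examples, the 250 bases before the annotated start of Hoxa7, Hoxb8, Hoxd4 and Hoxd13, 5′ to 3′ on the strand of the gene. The capitals mark TTTATG, or CATAAA where it lies on the other strand, letters known as a core that caudal-type (Cdx) homeodomain factors prefer. The sequences are from RefSeq on GRCm38.p6, at chr6:52218574-52218823 (minus strand), chr11:96281655-96281904, chr2:74721728-74721977 and chr2:74667975-74668224 (plus strand), and these positions do not correspond to the mm9 positions of the loci.
Hoxa7: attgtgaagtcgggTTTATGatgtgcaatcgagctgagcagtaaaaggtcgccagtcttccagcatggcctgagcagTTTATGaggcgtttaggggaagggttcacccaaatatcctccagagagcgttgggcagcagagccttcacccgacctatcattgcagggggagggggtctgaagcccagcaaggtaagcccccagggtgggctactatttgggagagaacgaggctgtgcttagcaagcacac
Hoxb8: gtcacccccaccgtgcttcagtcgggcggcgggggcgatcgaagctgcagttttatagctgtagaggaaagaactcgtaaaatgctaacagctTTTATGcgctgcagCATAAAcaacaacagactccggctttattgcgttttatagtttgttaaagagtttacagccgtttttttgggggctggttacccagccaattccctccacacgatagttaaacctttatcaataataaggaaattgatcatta
Hoxd4: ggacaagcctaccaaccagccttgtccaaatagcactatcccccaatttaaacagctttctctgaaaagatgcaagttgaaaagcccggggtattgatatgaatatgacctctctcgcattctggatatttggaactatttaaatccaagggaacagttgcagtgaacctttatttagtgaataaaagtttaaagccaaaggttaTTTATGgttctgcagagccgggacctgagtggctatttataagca
Hoxd13: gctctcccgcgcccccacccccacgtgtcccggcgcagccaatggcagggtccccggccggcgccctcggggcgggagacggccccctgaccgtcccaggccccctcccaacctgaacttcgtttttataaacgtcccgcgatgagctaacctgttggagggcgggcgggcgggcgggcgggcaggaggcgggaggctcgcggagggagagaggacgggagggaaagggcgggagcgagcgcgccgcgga
Hoxa7, Hoxb8 and Hoxd4 were picked because they hold the letters, and Hoxd13 because it does not. RefSeq promoter sequences of 300 bases, from 250 before to 50 after the start, were found for 20 of the 35 Hox genes, 22 sequences in all. None was of a Hoxc gene, and of the Hoxb genes only Hoxb1, Hoxb4 and Hoxb8 were found. Of the 22 sequences 5 held TTTATG on either strand (22.7%), against 11.9% of the 32851 promoter sequences in the whole table. It was 1 of 7 short motifs counted, and was chosen for marking after these counts had been seen. The others stood at 18.2% of Hox promoters against 8.85% of all for TGATNNAT, 27.3% against 16.3% for AGGTCA, 18.2% against 13.6% for TATAAA, 59.1% against 37.4% for CCAAT, 63.6% against 38% for CGCG, and 36.4% against 35.7% for GGGCGG, both strands counted. CpG pairs numbered 37 in the Hoxd13 sequence of 300 bases and 4 in that of Hoxd4, with a median of 14.5 in Hox promoters and 7 in all. A match is a description of the letters and no binding was measured.

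Most loci of the Hox clusters rose between the stages, and the Hoxd cluster rose throughout. Of the 31 loci, 22 were higher at day 6, 1 was lower and 8 did not pass the test (limma with Benjamini-Hochberg adjustment over 17145 loci, adjusted p under 0.05). Over all tested loci 44% were called, 22.2% higher and 21.8% lower. The median change of the 31 loci was 2.07 on the log2 scale, against 0.02 over all tested loci. Rises of at least 8-fold were called for 13 of them and for 3.51% of all tested loci. In 22 loci all day 6 values lay above all day 0 values, as they did for 29.5% of all tested loci, and in 1 locus they lay below, as for 27.7%. By class, 11 of the 17 Hox gene loci rose and 1 fell, 5 of the 8 opposite-strand and 3 of the 3 Hox-strand noncoding loci rose, and so did the 3 other genes. Restricting the set to the 16 loci with at most 10% of their exonic bases shared left 11 higher and 1 lower. All 31 passed the minimum level for testing, but 7 of them reached it only through day 6, the stage at which they are high, so that these had to differ. The 7, which include Hottip, Hoxd8 and Evx2, account for 7 of the rises and 6 of those of at least 8-fold. Of the other 24, 15 were higher, 7 of them at least 8-fold, and 1 was lower. In bulk RNA, fewer cells of a type and less RNA per cell cannot be told apart, so a rise may be more cells, more RNA per cell or both.

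**Figure D1:**
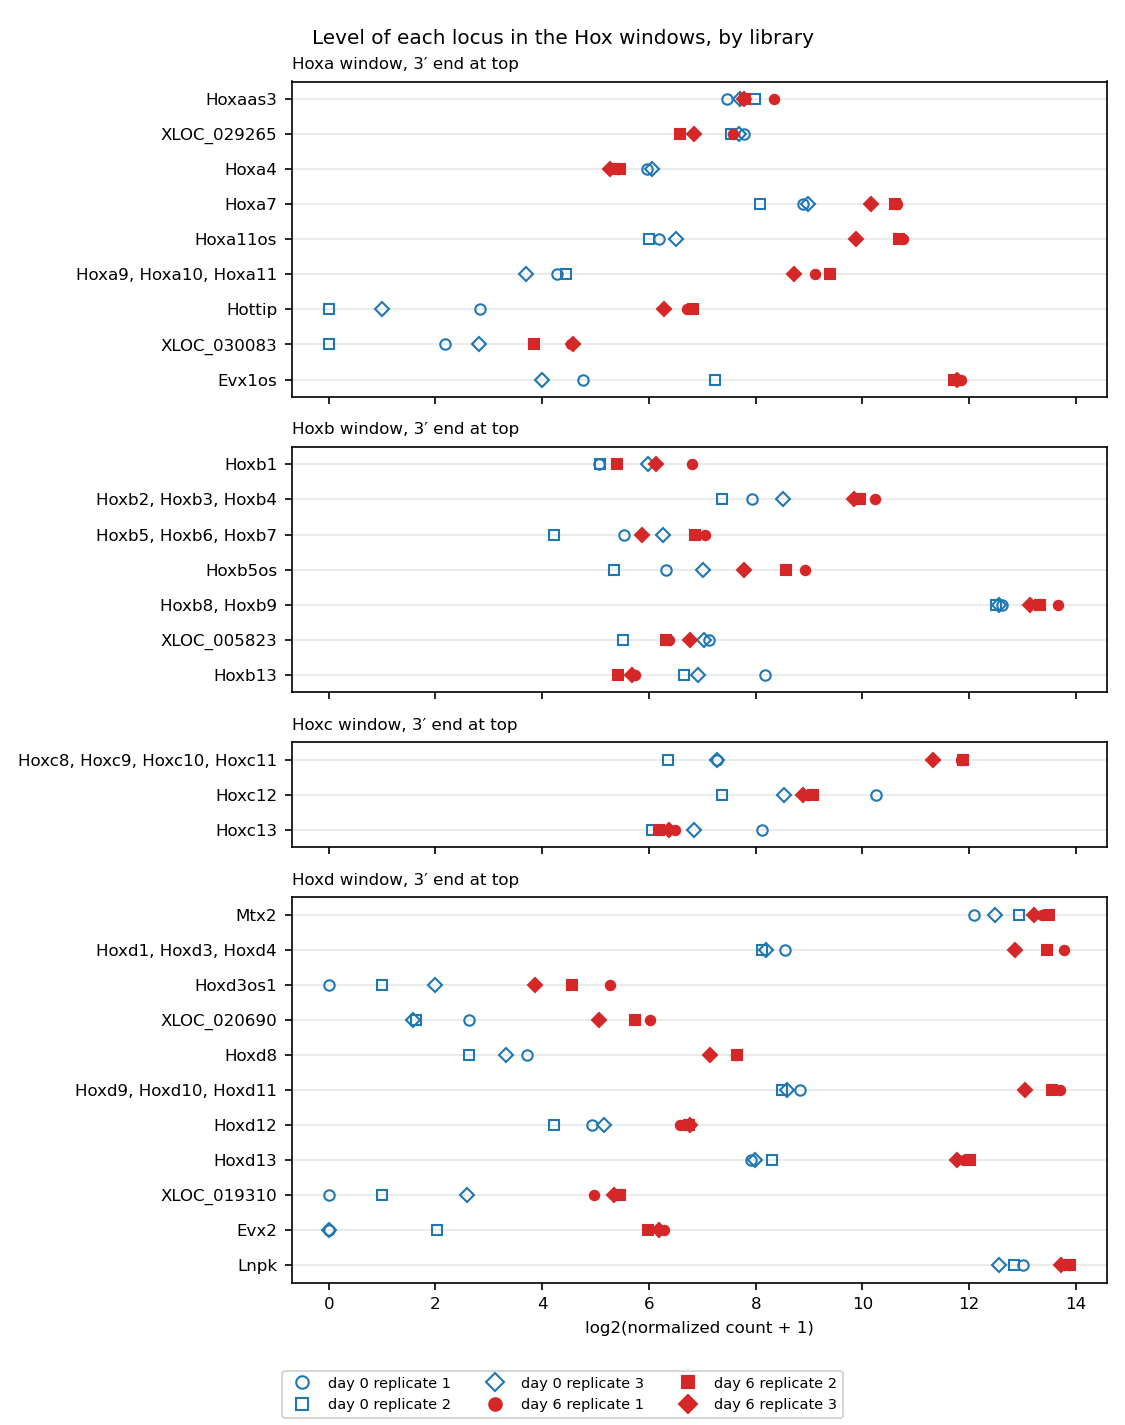
Level of each locus described here in each library, as log2(normalized count + 1), grouped by cluster and ordered from the 3′ end (top) to the 5′ end. Open blue symbols are day 0 and filled red symbols day 6 replicates. At each locus of the Hoxd window the day 6 symbols lie to the right of the day 0 symbols, while several Hoxb and Hoxc loci overlap.

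**Figure D2:**
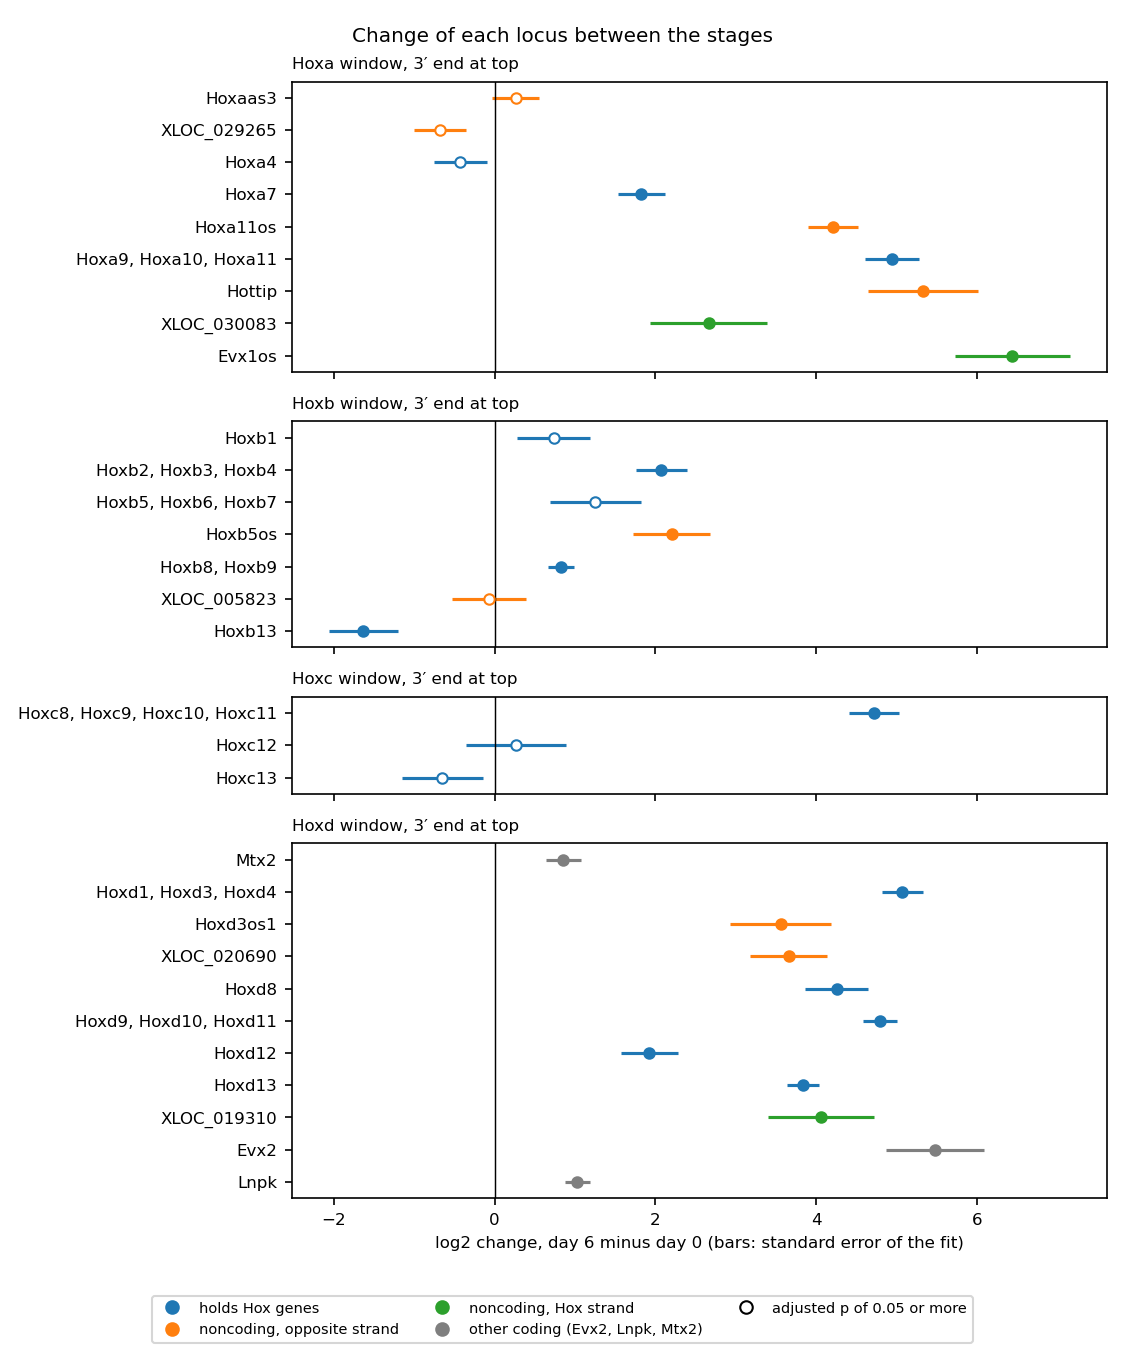
Change between the stages (log2, day 6 minus day 0) of each locus with its standard error, in the same order, coloured by class. Filled points passed the test and open points did not. The 8 open points lie in the Hoxa, Hoxb and Hoxc windows, and the only filled point left of 0 is Hoxb13.

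In the Hoxa cluster, the Hox-strand loci described here run from Hoxa4 to Hoxa11 in 3′ to 5′ order, and the rise was largest from Hoxa9 on. Hoxa4 (XLOC_030080, chr6:52139686-52141702), a gene that helps to pattern the neck, had 61.1, 41.4 and 65.8 normalized counts at day 0 and 41.6, 43.1 and 37.6 at day 6. Its stages overlapped and it did not pass the test (log2 change -0.43, SE 0.33, limma adjusted p = 0.325).

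Hoxa7 (XLOC_030081, chr6:52164497-52171892), a trunk gene, rose 3.47-fold. It had 472, 271 and 502 normalized counts at day 0 and 1605, 1572 and 1139 at day 6 (log2 change 1.82, SE 0.29, limma adjusted p = 0.00155). The posterior locus of Hoxa9, Hoxa10 and Hoxa11 (XLOC_030082, chr6:52173096-52210874) had the largest rise among the coding loci of the cluster. Its values were 18.3, 20.7 and 12 at day 0 and 553, 671.5 and 422 at day 6, a 32.3-fold rise (log2 change 4.94, SE 0.34, limma adjusted p = 2.73e-05). The ranges are far apart, and 88.2% of the exonic bases of this locus are shared with other loci. It also holds an annotated model that could not be named, so its counts may include a further gene. The antisense locus that holds Hoxa11os spans nearly the same region.

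The opposite strand of the Hoxa window held 4 loci. Hoxaas3 (XLOC_029263, chr6:52107565-52163596), an antisense transcript across the anterior genes, overlapped between the stages, with 174.5, 252 and 208 normalized counts at day 0 and 324.5, 222.5 and 218 at day 6 (limma adjusted p = 0.496). An antisense locus with no annotated gene, XLOC_029265 at chr6:52125912-52133621, had 220, 185 and 205 at day 0 and 189, 94.3 and 114 at day 6 (log2 change -0.68, limma adjusted p = 0.126). Its exons overlap no other locus. Neither of these anterior antisense loci passed the test.

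Both posterior antisense loci rose. Hoxa11os is a transcript antisense to Hoxa11 whose expression is known to alternate with that of Hoxa11 in the embryo. Its locus (XLOC_029266, chr6:52173096-52210361) joins 9 assembled transcripts over 34325 exonic bases, so the counts are not those of Hoxa11os alone. This locus had 71.5, 63.2 and 89.7 normalized counts at day 0 and 1740, 1641 and 940.5 at day 6. It rose 19.2-fold (log2 change 4.21, SE 0.31, limma adjusted p = 4.15e-05), and shares 74% of its exonic bases. Hottip (XLOC_029267, chr6:52212778-52217597), a noncoding RNA known for its ties to the posterior Hoxa genes, had 6.1, 0 and 1 at day 0 and 103.4, 112 and 77.2 at day 6. Its day 0 libraries held 8 reads in all, and the ratio of read counts was 38 (95% interval 19 to 88.9, counting error only). The fitted log2 change was 5.33 (SE 0.69, limma adjusted p = 0.000522). Leaving out day 0 replicate 1 gave 6.11, leaving out replicate 2 gave 4.69, and it was 3.87 with a pseudocount of 5.

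Beyond the Hox genes at the 5′ end, 2 noncoding loci lie on the Hox strand. The unannotated XLOC_030083 (chr6:52239511-52242102) went from 3.5, 0 and 6 to 22.3, 13.3 and 23 (log2 change 2.67, SE 0.73, limma adjusted p = 0.0183). Leaving out day 0 replicate 2 gave a log2 change of 1.84. The call was lost without day 6 replicate 1 (limma adjusted p = 0.0602) and without day 6 replicate 3 (0.0634). Evx1os (XLOC_030084, chr6:52257701-52268926), the antisense partner of the homeobox gene Evx1, had 26.2, 150 and 15 normalized counts at day 0 and 3675.5, 3346 and 3486 at day 6, a 54.9-fold rise (log2 change 6.44, SE 0.72, limma adjusted p = 0.000252). Day 0 replicate 2 stood well above replicates 1 and 3, and the day 6 values lay close together. Leaving out day 0 replicate 2 gave a log2 change of 7.39, and leaving out day 0 replicate 3 gave 5.77. Among the 31 loci it was the largest in this fit, while Evx2 had a larger one with edgeR (5.97 against 5.74) and with DESeq2 (6.16 against 5.77) and a larger ratio of means. Evx1 itself is in a locus without counts, and Evx1os shares 51% of its exonic bases with other loci.

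The Hoxb cluster had a higher summed level than Hoxc and Hoxd at day 0, most of it from the Hoxb8 and Hoxb9 locus. Its ratio between the stages was smaller, as the sums given further on show. At its 3′ end Hoxb1 (XLOC_004915, chr11:96227043-96229671), a hindbrain gene, had 32.3, 33.1 and 61.8 normalized counts at day 0 and 110.5, 41 and 68.9 at day 6. The stages overlapped (log2 change 0.73, SE 0.46, limma adjusted p = 0.226). The joined locus of Hoxb2, Hoxb3 and Hoxb4 (XLOC_004914, chr11:96168434-96216868) rose 4.04-fold, from 244, 165 and 363 to 1209, 986 and 923 (log2 change 2.07, SE 0.32, limma adjusted p = 0.00121), the largest coding rise of the cluster. This locus shares 75.0% of its exonic bases. The locus of Hoxb5, Hoxb6 and Hoxb7 (XLOC_004913, chr11:96146845-96167844) had 45.4, 17.6 and 75.8 at day 0 and 131, 116 and 57.4 at day 6, with day 6 replicate 3 below day 0 replicate 3. It did not pass (log2 change 1.25, SE 0.57, limma adjusted p = 0.106), but did with quantile normalization (limma adjusted p = 0.045). Of its exonic bases 85.5% are shared.

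The locus of the trunk genes Hoxb8 and Hoxb9, which also takes in the long noncoding RNA gene Gm53 (XLOC_004912, chr11:96109280-96146639), was the most abundant Hox locus of the day 0 cells, with 6272, 5776 and 6024 normalized counts. At day 6 it had 13027, 10295 and 8983, which is 1.79-fold more (log2 change 0.82, SE 0.16, limma adjusted p = 0.00433). The 3 day 0 values lay close together. Hoxb13 (XLOC_004910, chr11:96055675-96057913), a gene of the tail end of the axis and of the prostate, was the only locus called lower. It had 288, 99.4 and 121 at day 0 and 52.7, 42 and 50.1 at day 6, so that all day 6 values were below all day 0 values (log2 change -1.63, SE 0.43, limma adjusted p = 0.0154). Day 0 was 3.51-fold higher, and day 0 replicate 1 stood above the others. Without day 6 replicate 2 the call was lost, at a limma adjusted p of 0.0625. The name Hoxb13 was assigned only after the search for neighbouring genes had been widened from 5 to 10 genes, since another gene has an intron of the same length, so the locus is better identified by its position.

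On the opposite strand of the Hoxb window, Hoxb5os (XLOC_005825, chr11:96146845-96168294), antisense to Hoxb5 and Hoxb6, had 78.5, 39.4 and 129 normalized counts at day 0 and 484, 378 and 220 at day 6. It rose 4.39-fold (log2 change 2.20, SE 0.48, limma adjusted p = 0.00674), and shares 76.4% of its exonic bases. Per kilobase of exonic length its mean level at day 6 was 19.2 normalized counts, against 6.03 for the sense locus of Hoxb5 to Hoxb7 across the same span. Most bases of these loci are shared, so this comparison depends on how reads in shared exons were counted, which is not known. The unannotated antisense locus XLOC_005823 (chr11:96060045-96066082), between Hoxb13 and Hoxb9, had 139, 44.5 and 131 at day 0 and 82.1, 78.9 and 107.5 at day 6 (log2 change -0.07, limma adjusted p = 0.914). The sign of this change turned in 4 of the alternative analyses.

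In the Hoxc window only 3 loci had counts, all on the Hox strand and all from the posterior part of the cluster. The joined locus of Hoxc8, Hoxc9, Hoxc10 and Hoxc11 (XLOC_012344, chr15:102773301-102824817), genes of the lower trunk and hindlimb, had 153.5, 80.8 and 155 normalized counts at day 0 and 3702, 3789 and 2558 at day 6. It rose 25.8-fold with ranges far apart (log2 change 4.72, SE 0.32, limma adjusted p = 2.62e-05), and shares 48.7% of its exonic bases. The 2 loci beyond it did not pass the test. Hoxc12 (XLOC_012343, chr15:102762302-102772039) had 1213.5, 165 and 368 at day 0 and 505, 536 and 472 at day 6, so that the day 0 values lay on both sides of day 6. The fitted change was 0.26 (SE 0.62, limma adjusted p = 0.757), although the mean was lower at day 6, and without day 0 replicate 1 it was 1.03 with a limma adjusted p of 0.0462. Hoxc13 (XLOC_012342, chr15:102751518-102762112), a gene of hair and nails, had 277, 65.2 and 114 at day 0 and 89.2, 71.8 and 82.5 at day 6 (log2 change -0.65, SE 0.50, limma adjusted p = 0.326).

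The Hoxd window held 11 loci, and 11 of 11 rose, with all day 6 values above all day 0 values in each. Over all tested loci 22.2% were called higher, and 29.5% had all day 6 values above all day 0 values. Hoxd8, Hoxd3os1, XLOC_020690, XLOC_019310 and Evx2 reached the minimum level for testing only through day 6. The direction of their changes was therefore largely set by that minimum. At the 3′ end the locus of Hoxd1, Hoxd3 and Hoxd4, with the predicted genes Gm14424 and Gm28230 (XLOC_019315, chr2:74548304-74603871) had 373, 279 and 293 normalized counts at day 0 and 14068, 11227.5 and 7432 at day 6. It rose 34.6-fold (log2 change 5.07, SE 0.26, limma adjusted p = 9.63e-06). This was the largest change of a Hox gene locus in the 4 windows in this fit. The Hoxa9 to Hoxa11 locus lay above it with quantile normalization (5.16 against 5.03). It also did so without day 0 replicate 2 (5.09 against 4.99) and without day 6 replicate 1 (4.92 against 4.87). Hoxd8 (XLOC_019314, chr2:74541065-74546142) was low, with 12.2, 5.2 and 9 at day 0 and 198, 201 and 141 at day 6 (log2 change 4.26, SE 0.39, limma adjusted p = 0.000106). Hoxd8 shares 51.6% of its exonic bases. The locus of the limb and lower trunk genes Hoxd9, Hoxd10 and Hoxd11, with the predicted gene Gm14396 (XLOC_019313, chr2:74517462-74538311), rose 28.2-fold, from 454, 361 and 386 to 13405, 11952 and 8478 (log2 change 4.79, SE 0.21, limma adjusted p = 5.68e-06). It shares no exonic base with another locus.

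Toward the 5′ end of the Hoxd cluster the single-gene loci Hoxd12 and Hoxd13 rose by less, and both passed the test in each alternative run. Hoxd12 (XLOC_019312, chr2:74513087-74515762) went from 29.7, 17.6 and 34.9 to 95.3, 107 and 107.5 (3.77-fold, log2 change 1.93, SE 0.35, limma adjusted p = 0.00289). Hoxd13 (XLOC_019311, chr2:74506367-74509655), the gene of digits and of the genital region, went from 239, 314 and 254 to 3839, 4134 and 3509, a 14.2-fold rise (log2 change 3.83, SE 0.20, limma adjusted p = 9.63e-06). Hoxd12 lies between Hoxd13 and the Hoxd9 to Hoxd11 locus and had a smaller log2 change than either, a difference between loci that was not tested. Both of these loci share no exonic base with others.

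The noncoding loci of the Hoxd window and Evx2 rose from very low levels. On the opposite strand Hoxd3os1 (XLOC_020691, chr2:74548101-74554187) had 0, 1 and 3 normalized counts at day 0 and 37.5, 22.6 and 13.6 at day 6, 4 against 72 reads (log2 change 3.56, SE 0.63, limma adjusted p = 0.00259). The unannotated XLOC_020690 (chr2:74541072-74546563), antisense across Hoxd8, had 5.2, 2.1 and 2 at day 0 and 63.9, 52.3 and 32.4 at day 6 (log2 change 3.66, SE 0.48, limma adjusted p = 0.000549), and shares 74.8% of its exonic bases. On the Hox strand, the unannotated intergenic XLOC_019310 (chr2:74500628-74504921), 5′ of Hoxd13, went from 0, 1 and 5 to 30.4, 43.1 and 39.7 (log2 change 4.06, SE 0.66, limma adjusted p = 0.0016). Leaving out day 0 replicate 1 gave 3.46, and leaving out replicate 3 gave 4.75. Evx2 (XLOC_020689, chr2:74493673-74497476), an even-skipped type homeobox gene next to Hoxd13, had 0, 3.1 and 0 at day 0 and 77.1, 62.5 and 72 at day 6. Its 3 day 0 reads all came from replicate 2, and the ratio of read counts was 73.2 (95% interval 24.7 to 358, counting error only). The log2 change was 5.48 (SE 0.61, limma adjusted p = 0.000246), and was 6.16 without day 0 replicate 2 and 3.68 with a pseudocount of 5, so its size rests on few day 0 reads.

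The Hoxd cluster is bordered by Lnpk and Mtx2, both broadly expressed genes. Lnpk (XLOC_020688, chr2:74352723-74417005), which encodes lunapark, a protein of the endoplasmic reticulum, rose 2.03-fold, from 7187 ± 1100 to 14590 ± 921 normalized counts (SD over 3 libraries; log2 change 1.03, SE 0.15, limma adjusted p = 0.00102). Mtx2 (XLOC_019316, chr2:74663869-74719197), a mitochondrial outer membrane protein gene, rose 1.76-fold, from 5964 ± 1725 to 10530 ± 1060 (SD over 3 libraries; log2 change 0.85, SE 0.21, limma adjusted p = 0.0125), and its adjusted p was 0.0566 without day 6 replicate 2. The loci between them changed by 1.93 to 5.48 on the log2 scale.

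Summed over the loci that hold Hox genes, the Hoxb, Hoxc and Hoxd clusters changed order. At day 0 Hoxb had 6539 ± 406 normalized counts, Hoxd 1021 ± 75.6 and Hoxc 864 ± 695 (SD, n = 3 each). At day 6 Hoxd had 26300 ± 6078, Hoxb 12030 ± 2274 and Hoxc 3935 ± 714 (SD, n = 3 each). Hoxd was below Hoxb in each day 0 library and above it in each day 6 library. The joined Hoxb8 and Hoxb9 locus alone had means of 6024 at day 0 and 10770 at day 6. The place of Hoxb above Hoxd at day 0 therefore rests on this locus. The day 0 range of Hoxc, 311 to 1644, enclosed that of Hoxd. The ratio of the means was 25.8 for Hoxd, 4.56 for Hoxc and 1.84 for Hoxb. For Hoxc it was 8.31 without day 0 replicate 1, and 0.866 with Hoxc12 alone, the one Hoxc locus with at most 10% of its exonic bases shared. These sums follow locus length and joining, and were not tested.

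**Figure D3:**
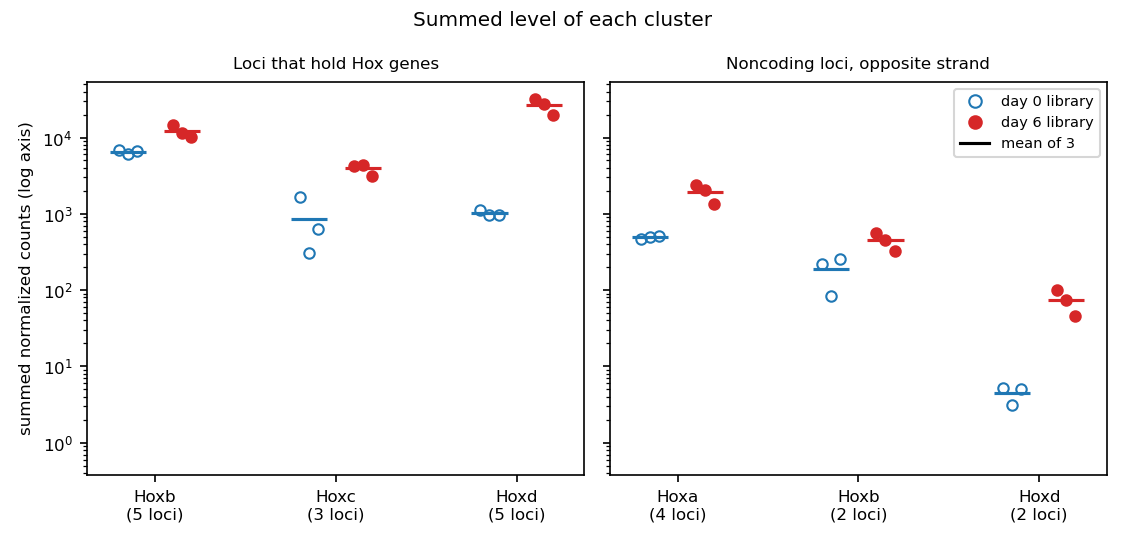
Summed normalized counts per library (log axis) of the loci that hold Hox genes (left) and of the opposite-strand noncoding loci (right), by cluster, with the mean of 3 libraries as a line. Open blue points are day 0 and filled red points day 6. Hoxd moves from about the level of Hoxc to the top of the left panel.

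Opposite-strand noncoding loci held different levels and shares in the clusters. In Hoxa their sum was 3.91-fold higher in embryoid bodies, with 492 ± 17.7 in ES cells against 1925 ± 519 (normalized counts, SD over 3 libraries; not tested). With only the loci that share at most 10% of their exonic bases, which leaves out Hoxaas3 and Hoxa11os, it was 1.12-fold. Of the counts of Hox gene loci and opposite-strand loci together, they made up 2.72% ± 1.23 in Hoxb at day 0 and 3.58% ± 0.37 at day 6. In Hoxd they made up 0.432% ± 0.101 and 0.274% ± 0.044 (SD over 3 libraries each). The ranges of the 2 stages overlapped in Hoxb, from 1.36 to 3.75% and from 3.15 to 3.83%, and by a narrow margin in Hoxd, from 0.317 to 0.508% and from 0.233 to 0.320%.

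Levels were also set per kilobase of exonic length, shared bases included. By this measure Hoxd13 was the highest Hox locus at day 6 with 1542 normalized counts per kilobase. The Hoxd9 to Hoxd11 locus followed with 587 and the Hoxb8 and Hoxb9 locus with 445. At day 0 the Hoxb8 and Hoxb9 locus led with 248.7 per kilobase, then Hoxb13 with 129 and Hoxd13 with 108. The lowest Hox loci at day 0 were that of Hoxa9 to Hoxa11 with 0.591 and Hoxd8 with 1.88. Among noncoding loci Evx1os was highest at day 6 with 389 per kilobase, against 42.0 for the joined locus of Hoxa11os and 34.0 for Hottip. Loci that join several genes have long exonic lengths, which lowers these values. Shared bases make up 88.2% of the Hoxa9 to Hoxa11 locus and 51.6% of Hoxd8. How reads in shared bases were counted is not known, so the order of loci that share bases may depend on it.

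A further 21 assembled loci of the windows are not in the count table. Of these 10 have a single exon and no strand, and 11 are spliced. The spliced ones share a median of 99.8% of their exonic bases with other loci, and 10 of the 11 share over 60%, against a highest share of 88.2% among counted loci. They include the joined locus of Hoxc4, Hoxc5 and Hoxc6, the noncoding RNA Hotair, Hoxaas2 and Evx1. The anterior part of Hoxc is therefore not described here. Hoxa13 was matched to no model. An annotated model in the Hoxa9 to Hoxa11 locus went without a name, so whether that locus takes in Hoxa13 is not known.

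**Figure D4:**
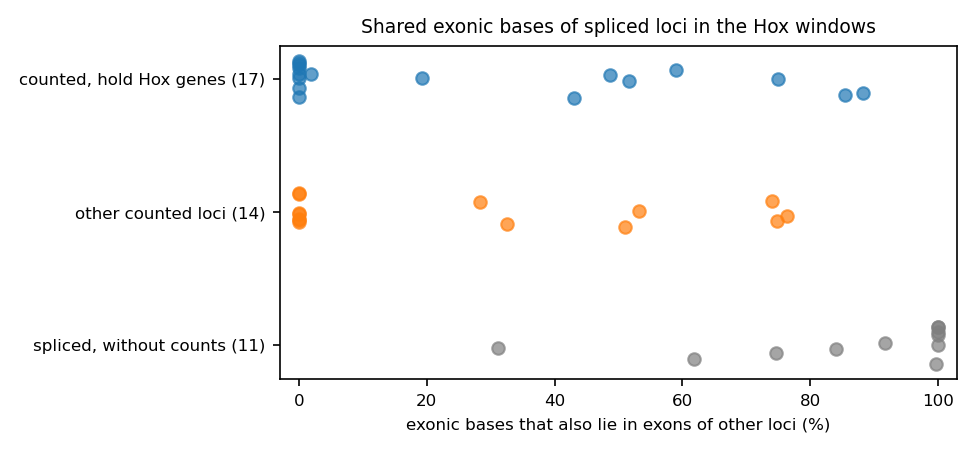
Percentage of exonic bases that also lie in exons of other loci, for the 17 counted loci that hold Hox genes, the 14 other counted loci and the 11 spliced loci without counts. Each point is 1 locus, spread vertically for legibility. Points of the loci without counts gather near 100%, and those of counted loci reach 88.2%.

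Day 0 replicates differed in some of these loci far more than day 6 replicates. In Hoxc12, Hoxc13 and Hoxb13 day 0 replicate 1 was highest and replicate 2 lowest, whereas in the Hoxb2 to Hoxb4 locus replicate 3 was highest and replicate 2 lowest. Fibroblast markers also differed between the day 0 libraries. Their summed level over the 9 of 10 listed genes that were found was 106481, 55460 and 233882 normalized counts in day 0 replicates 1, 2 and 3, and 127620 to 180397 at day 6, with no marker at 0 in any library. Of the 9, 4 were called lower at day 6 (Col1a2, Thy1, Dcn and S100a4), 2 higher (Postn and Pdgfra) and 3 did not pass, so the list does not move one way. S100a4 stood at 3688 ± 2658 in ES cells and at 33.4 ± 16.3 in embryoid bodies (SD over 3 libraries each). Across the 31 loci, 9 stood in the day 0 order of the marker sum, among them Hoxa7, Hoxb5os and the Hoxb2 to Hoxb4 and Hoxc8 to Hoxc11 loci. Day 0 replicate 2 was lowest in 20 of the 31, replicate 1 in 7 and replicate 3 in 4. The day 6 libraries were uneven as well, with replicate 3 lowest in 20 of the 31, replicate 2 in 9 and replicate 1 in 2. These counts were not made over all loci. The part of feeder cells in the day 0 levels of the Hox loci was not tested.

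**Figure D5:**
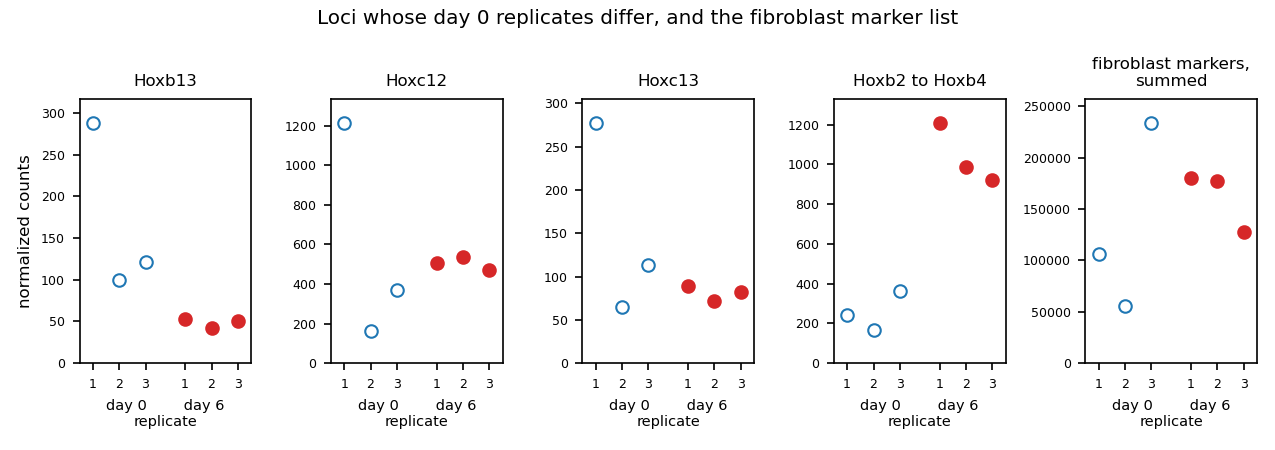
Normalized counts in each library (linear axes from 0, scaled per panel) of Hoxb13, Hoxc12, Hoxc13 and the Hoxb2 to Hoxb4 locus, and of the summed fibroblast markers. Open points are day 0 and filled points day 6. In Hoxb13, Hoxc12 and Hoxc13 day 0 replicate 1 stands highest, and in the marker sum day 0 replicate 3.

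The stage labels were checked against markers. Of the 7 pluripotency genes found, 5 were called lower at day 6, and Pou5f1 and Nanog did not pass the test. Pou5f1 and Nanog share 56.3% and 53.7% of their exonic bases with other loci, so their levels depend on how shared reads were counted. Dppa5a, Zfp42, Esrrb and Klf4 had the highest levels of the list at day 0. Tdgf1, also called lower, had only 15.3 ± 3.5 normalized counts at day 0, with 93% of its exonic bases shared, and Nanog was low at both stages, at 187 ± 82.1 and 92.2 ± 34.8 normalized counts (SD, n = 3 each). Of 6 cardiac genes found 4 rose, with Nkx2-5 at 24.1 ± 10.2 and 100.1 ± 21.3 and Gata4 at 1201 ± 231 and 20680 ± 898 (SD, n = 3 each), while Myh6 and Myl7 fell. All 3 endoderm genes found rose, 3 of 4 mesoderm genes rose and 2 of 3 neural genes fell. Over all tested loci 22.2% were called higher and 21.8% lower. T, Mesp1, Eomes, Afp and Ttr were under 10 normalized counts in each day 0 library. They reached the minimum level only through day 6, so their rises are no check of the labels. Tdgf1 reached it only through day 0. T, Mesp1 and Eomes stayed low at day 6 (means 19.3, 20.95 and 21.9) and share 86.9%, 63.2% and 78.8% of their exonic bases. Gata4 shares 56.6%.

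Partners and regulators of Hox genes were read from the same fit. Hox proteins bind DNA with cofactors of the Pbx, Meis and Pknox families, and 6 of the 8 listed genes rose, among them Pbx3, Meis1, Meis2, Meis3 and Pknox2. Meis2 rose from 1070 ± 158 to 14080 ± 476 (SD over 3 libraries; log2 change 3.73, SE 0.16, limma adjusted p = 4.41e-06). Pbx2 fell (log2 change -1.59), with 84.2% of its exonic bases shared, and Pknox1 did not pass. The list had a median log2 change of 2.02. Of the 3 caudal factors, which activate Hox genes in the posterior embryo, Cdx2 rose from 576, 996 and 268 to 11101, 12367 and 8007 (log2 change 4.26, SE 0.43, limma adjusted p = 0.000162). Cdx1 fell, with 1778, 281 and 251 at day 0 and 66.9, 108 and 85.6 at day 6 (log2 change -2.54, SE 0.69, limma adjusted p = 0.0181), its day 0 replicate 1 standing far above the others, as in Hoxb13 and Hoxc12. Cdx4 did not pass (log2 change -0.34).

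In the retinoic acid list, 1 of 6 genes rose, the receptor gene Rarb (log2 change 2.00, SE 0.30, limma adjusted p = 0.00111), and 5 did not pass, among them Cyp26a1 (0.04) and Crabp2 (0.40). Cyp26a1 and Crabp2 share 87.0% and 44.5% of their exonic bases. Of 9 Polycomb genes, 3 rose (Ring1, Cbx2 and Bmi1), 3 fell (Eed, Jarid2 and Cbx7) and 3 did not pass. Ring1 and Cbx7 share 82.3% and 72.5% of their exonic bases with other loci. Cbx2 went from 4094 ± 247 to 11790 ± 1837 and Jarid2 from 36840 ± 18760 to 10260 ± 1053 (SD, n = 3 each). Of 6 genes in the list of trithorax factors and histone demethylases, the demethylase Kdm6b rose (log2 change 1.73) and Wdr5 and Utf1 fell (-0.61 and -1.78). Shared bases make up 71.2% of Wdr5 and 48.9% of Kdm6b. Utf1 is a factor of undifferentiated cells rather than a trithorax protein. All these shares lie beside a background of 44% called over all tested loci.

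Outside the windows, within 500 kb on either side, 54 loci had counts and 48 were tested. Of these 7 were higher and 12 lower, with a median log2 change of -0.07. No locus in the count table was found within that distance of the Hoxd window, so its rise has no neighbours for comparison other than Mtx2 and Lnpk.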

How the data were processed

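Poly(A)-selected RNA of 3 day 0 and 3 day 6 samples was compared. Sequencing libraries were made with an Illumina kit, per the labels' protocols, and the genome build was mm9; DESeq, HTSeq 0.5.4p3, Cufflinks 2.1.1 and TopHat2 2.0.8 are named, without roles, in the submitters' processing notes. The deposited signal per locus is a read count that the authors divided by 1 size factor per library: 100% of values were whole multiples of 1 step within 0.01 reads, and recovered reads numbered 106306699 to 114092201 per library. No column was left unused. Intervals on counts cover counting error only.

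Members were all loci overlapping the 4 windows; members, lists and classes were chosen with earlier results of these data known. Members are named in order from 3′ to 5′, except 1 locus that is counted in the totals but not reported here, for which no sum over Hoxa genes is given. Levels were tested with limma 3.58.1 (R 4.3.3; trend and robust) on log2(normalized count + 1), two-sided, for loci reaching 10 normalized counts in 3 or more of the 6 libraries, adjusted by Benjamini-Hochberg over 17145 loci at 0.05. Folds are ratios of means; log2 changes understate those of low loci. edgeR 4.0.16 and DESeq2 1.42.0 on recovered reads, other pseudocounts, minimum levels, scalings and variance models, a block and leaving out libraries were alternatives. The fit was also run on simulated counts in which only a small part of the loci was changed. In these data 44% of tested loci were called, so that run does not give the error rate here.

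The files give annotation identifiers that match no name table. Transcript models were therefore matched to GENCODE M21 (GRCm38) by identical intron and inner exon lengths on the same chromosome and strand, ambiguous single-intron matches being settled by named neighbours within 10 genes; no coordinate was converted. Of 78 annotated models in the windows, 73 were named, 16 by intron length alone. Matching to the next chromosome instead gave names to 0% of models with several introns, 0.069% with intron and exon length and 7.68% with intron length alone. Named loci stood in the reference order in 14 of 14 adjacent pairs, a check that is partly circular because of the neighbour rule. A locus was called coding from the assembly's protein identifiers; Hoxa11os and Hoxd3os1 carry such identifiers and were classed as noncoding from their GENCODE type.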

Additional observations from a re-analysis of the deposited data

How the results depend on the processing

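Of the 31 loci, 25 kept their direction and their side of the threshold in every alternative that tested them, and so did 20 of the 23 called ones. Changed loci numbered 19 of the 26 tested with a minimum of 50 counts and 24 with quantile normalization, edgeR and DESeq2 on recovered reads each called 23 (7493 and 8278 of all loci), and leaving out 1 library gave 21 to 24 changed, 21 to 23 higher and 0 to 1 lower. The 0 came without day 6 replicate 2, where limma gave 1 lower locus at an unadjusted p under 0.05. With at most 10% shared exonic bases, 16 loci were left, 12 changed and 11 higher, the Hoxa opposite-strand sum changed by 0.16 on the log2 scale against 1.97, the Hoxc sum, then Hoxc12 alone, by -0.21 against 2.19. Quantile normalization gave a Hoxd opposite-strand share of 0.33% at day 6. The sign turned for XLOC_005823 with quantile normalization (0.24) and without day 0 replicate 1 (0.21), day 0 replicate 3 (0.17) or day 6 replicate 2 (0.01; range when 1 library is left out -0.60 to 0.21), and for Hoxc12 with edgeR (-0.25), with DESeq2 (-0.23) and without day 0 replicate 2 (-0.41; range when 1 library is left out -0.41 to 1.03); the cause was not tested. The replicate block gave 23 changed, 22 higher and 1 lower, and 7852 over all loci. Same-numbered libraries correlated at 0.176, 0.134 and 0.074 in their deviations, each best with its own number, but the third is under 0.1, so the numbers were not taken as pairs. Loci with under 10 reads at a stage, such as Hottip, Hoxd3os1 and Evx2 at day 0, have wide count ratios.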
